A study of Homo sapiens with 9 samples.

Results

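Of the 9 genes of MHC class I antigen presentation described here, 3 (B2M, HLA-B and HLA-C) had higher RNA in HaCaT cells exposed to fragmented polystyrene (fPS) at 100 µg/ml than in cells exposed to 25 µg/ml. Of all genes 6.31% were called higher in that comparison, and the calls of HLA-B and HLA-C were lost when certain single 25 µg/ml libraries were left out. Only B2M of these was also called against cells in medium alone. The genes were taken by symbol from the 52402 symbols of the count table, and the counts of all rows of a symbol were summed: HLA-B, HLA-C, HLA-E, B2M, TAP1, TAP2, TAPBP, PSMB8 and PSMB9. HaCaT is an immortalised human keratinocyte line, kept here for 24 h in DMEM with 10% serum and either no fPS (control), fPS at 25 µg/ml (fPS 25) or fPS at 100 µg/ml (fPS 100). Poly(A)-selected RNA of 3 replicate libraries per group was sequenced, with 16428213 to 29274480 counts per library. Nothing in the labels says whether the replicates were separate cultures, so the spread that p-values rest on may be technical.

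MHC class I molecules carry peptides from inside a cell to its surface, where cytotoxic T cells and natural killer cells read them. The proteasome cuts proteins into peptides, and its immunoproteasome form carries the catalytic subunits PSMB8 and PSMB9. The transporter TAP1-TAP2 moves the peptides into the endoplasmic reticulum (ER), where tapasin (TAPBP) helps to load them onto a heavy chain such as HLA-B, HLA-C or HLA-E, paired with beta-2-microglobulin (B2M). Interferon raises most of these genes in keratinocytes, through factors that include IRF1 and the class I transactivator NLRC5.

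The label of the cells was checked by marker genes. All 8 markers of basal keratinocytes were above 1 CPM (counts per 1000000 counts of the library), and together they held 4250 to 4740 CPM in control, 3760 to 4040 CPM in fPS 25 and 4010 to 5100 CPM in fPS 100. Of 9 immune cell markers only CD68, a lysosomal protein also made by other cells, had a mean over 1 CPM over all libraries, and PTPRC, which marks all leukocytes, was at 0.058 CPM or less. The summed immune markers were at 10.2 to 11.2 CPM in control, 12.0 to 14.4 CPM in fPS 25 and 19.0 to 21.0 CPM in fPS 100. Most of that sum was CD68, with means of 8.39, 12.7 and 18.8 CPM in the same order of groups. Of the 2 immune markers tested, CD68 was called higher than in control at both concentrations. ITGAM was lower than in control in fPS 100 (edgeR log2 fold change -1.44, adjusted p = 0.0452) and in fPS 25 (-2.32, adjusted p = 0.0366). Means over 1 CPM were found for 4 of 4 markers of simple epithelium, 1 of 7 of fibroblasts, 2 of 5 of melanocytes and 2 of 4 of endothelial cells. The summed endothelial markers were at 1.22 to 1.98 CPM in control, 1.76 to 2.51 CPM in fPS 25 and 2.42 to 8.35 CPM in fPS 100. In fPS 100 against control edgeR called 1 of 2 tested endothelial markers higher and 1 of 2 tested fibroblast markers lower, beside 15.2% and 14.8% of all genes. Replicate 3 of fPS 100 stood apart from the other libraries: 9.88% of 10405 genes at 5 CPM or more lay over 1.5-fold from the mean of the other 2 libraries of its group, against 0.0961% to 2.23% in the other 8 libraries. Nuclear ribosomal RNA took 6.06%, 8.27% and 8.48% of counts in the fPS 100 libraries and 0% in all others. Fold changes of HLA-B, HLA-C and HLA-E are also given without replicate 3 of fPS 100. That of B2M against control was 0.49 without it (edgeR adjusted p = 0.00398). Leaving out the ribosomal RNA genes changed no call of a member. That step takes out their rows and rescales the libraries, and cannot remove another difference that came with them. A difference in preparation or read processing that goes with the ribosomal RNA cannot be told apart from fPS 100 here, for B2M as well. It was not tested. The part of the immune and other cell type markers in the results was not tested. In bulk RNA fewer cells of a type cannot be told apart from less RNA per cell.

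How much of the pathway the counts can show had to be settled first. The human MHC stands in the reference assembly in several alternate versions, and its genes have a row for each: 7 rows for HLA-C and HLA-E, 6 for HLA-B, 5 for TAPBP, and 8 each for TAP1, TAP2, PSMB8 and PSMB9. B2M lies outside it, on chromosome 15, and has 2 rows, the smaller with 2 counts. Over all 9 libraries, TAP1 and PSMB8 had 0 counts, PSMB9 had 1 and TAP2 had 3. In a single library a count of 0 allows up to 3 counts, or 0.102 to 0.183 CPM, for reads that the table assigned. It does not limit reads that were not assigned.

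The zeros were common in the neighbourhood of these genes. Of 138 protein-coding symbols between HLA-F and TAPBP (chromosome 6, 29723434 to 33314078, GRCh38.p14), 79 (57.2%) had under 10 counts over all 9 libraries, and 57 had none. Of 818 protein-coding symbols on 1 row elsewhere on chromosome 6, 185 (22.6%) had under 10. Genes that every cell uses were among those listed at 0: ABCF1, RING1 and EHMT2 had 0 counts, and RPS18, which makes a protein of the small ribosomal subunit, had 2. The median count of the 75 cytosolic ribosomal protein symbols on 1 row was 180877. TAP1, TAP2, PSMB8 and PSMB9 are therefore given only as listed at or near 0, and neither their presence nor their absence in HaCaT cells can be read from this table. How the authors' counting treated reads that match several rows is not given in the sources used here.

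**Figure D1:**
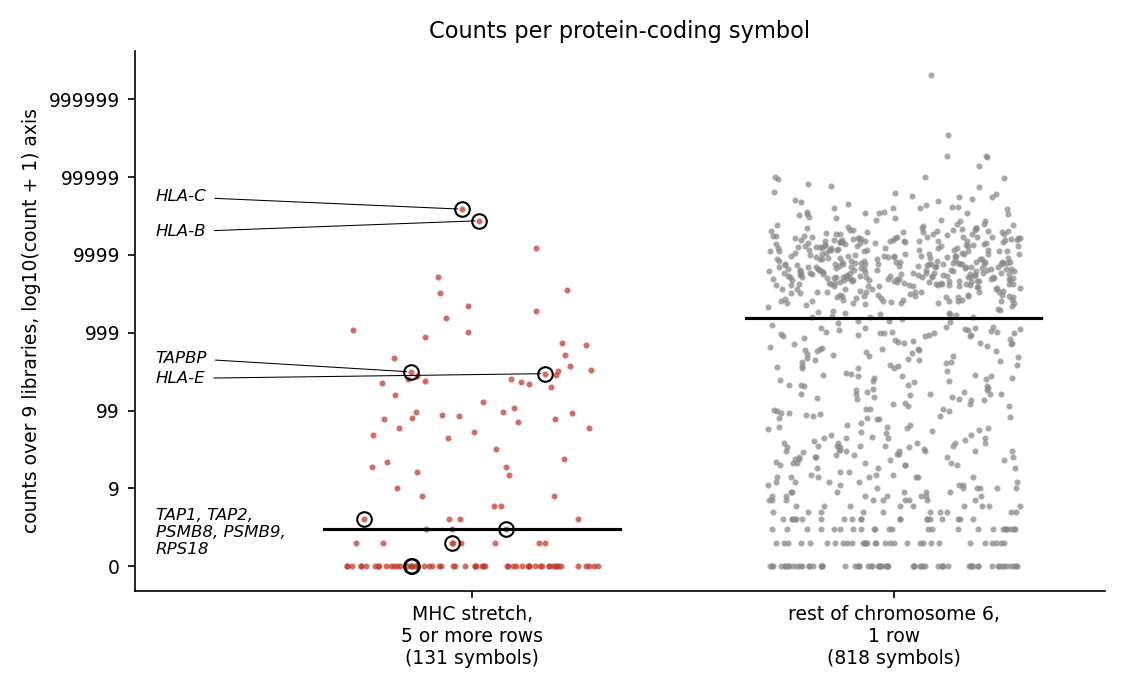
Counts of protein-coding symbols over all 9 libraries, on a log10(count + 1) axis, for the MHC stretch on 5 or more rows (131 symbols) and for the rest of chromosome 6 on 1 row (818 symbols). Each point is a symbol, circles mark the named genes, and black lines are the medians, which stood at 2 counts in the MHC stretch and at 1539 elsewhere.

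The heavy chains HLA-B and HLA-C were higher in fPS 100 than in fPS 25, and neither concentration was called against control. They are classical heavy chains that present peptide to T cells and bind killer-cell receptors. HLA-B (chromosome 6, 31353875 to 31357179) had 123, 139 and 119 CPM in control, 90.4, 83.2 and 98.2 CPM in fPS 25 and 121, 141 and 233 CPM in fPS 100, with libraries scaled by TMM. All fPS 25 libraries lay below all others, and replicate 3 stood highest in fPS 100 while replicates 1 and 2 lay within or close to the control range. The log2 fold change was 0.87 ± 0.20 (SE) for fPS 100 against fPS 25 (edgeR adjusted p = 0.0142), 0.38 ± 0.20 for fPS 100 against control (adjusted p = 0.167) and -0.49 ± 0.20 for fPS 25 against control (adjusted p = 0.191). Without replicate 3 of fPS 100 the fold change against control was 0.05 on the log2 scale, and against fPS 25 it was 0.53 (adjusted p = 0.00492), while fPS 25 was then called lower than control (-0.48, adjusted p = 0.00786). The call against fPS 25 was lost without fPS 25 replicate 1 (adjusted p = 0.0577) or replicate 2 (adjusted p = 0.0701).

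HLA-C (chromosome 6, 31268749 to 31272092) had 174, 191 and 158 CPM in control, 154, 132 and 150 CPM in fPS 25 and 178, 208 and 285 CPM in fPS 100. The order of the groups was that of HLA-B, and again fPS 25 was lowest in every library and replicate 3 of fPS 100 highest. The log2 fold change was 0.62 ± 0.15 for fPS 100 against fPS 25 (adjusted p = 0.0204), 0.36 ± 0.15 for fPS 100 against control (adjusted p = 0.101) and -0.27 ± 0.15 for fPS 25 against control (adjusted p = 0.359). Without replicate 3 of fPS 100 the fold change was 0.41 against fPS 25 (adjusted p = 0.0205) and 0.145 against control (adjusted p = 0.296). The call against fPS 25 was lost without any 1 of the fPS 25 replicates (adjusted p = 0.0567, 0.0976 and 0.0590). HLA-B and HLA-C are close copies of each other, so that the counting may have split shared reads between them, and their values are uncertain to that degree.

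HLA-E is a heavy chain of low diversity that presents signal peptides of other class I molecules to the receptor NKG2A on natural killer cells. It had 297 counts in all 9 libraries, 296 of them on 1 of its 7 rows (chromosome 6, 30489509 to 30494194). Its level was 0.889, 1.26 and 1.44 CPM in control, 0.994, 1.03 and 1.03 CPM in fPS 25 and 1.41, 1.79 and 2.53 CPM in fPS 100. The fPS 100 libraries lay above all of fPS 25 and overlapped control. The log2 fold change of 0.91 ± 0.28 against fPS 25 did not pass (adjusted p = 0.0524), nor did that of 0.67 ± 0.27 against control (adjusted p = 0.0832) or that of fPS 25 against control (-0.23 ± 0.29, adjusted p = 0.695). Without fPS 100 replicate 1 HLA-E passed against control (adjusted p = 0.0454) and against fPS 25 (adjusted p = 0.0309). Without replicate 3 of fPS 100 the fold change was 0.414 against control (adjusted p = 0.22) and 0.647 against fPS 25 (adjusted p = 0.114). With fPS 25 replicate 1, 2 or 3 left out, the adjusted p against fPS 25 was 0.147, 0.147 and 0.138.

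B2M, the light chain that every class I heavy chain needs to reach the surface, was the member called at fPS 100 against both other groups. B2M (chromosome 15, 44711517 to 44718145) had 223, 245 and 215 CPM in control, 204, 192 and 241 CPM in fPS 25 and 305, 335 and 325 CPM in fPS 100. The 3 fPS 100 libraries lay above the 6 others with little spread among themselves, and replicate 3 was not the highest. B2M rose by a log2 fold change of 0.50 ± 0.10 against control (adjusted p = 0.00386) and 0.60 ± 0.10 against fPS 25 (adjusted p = 0.00284). Between fPS 25 and control it was -0.10 ± 0.10 (adjusted p = 0.621), and these groups overlapped.

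**Figure D2:**
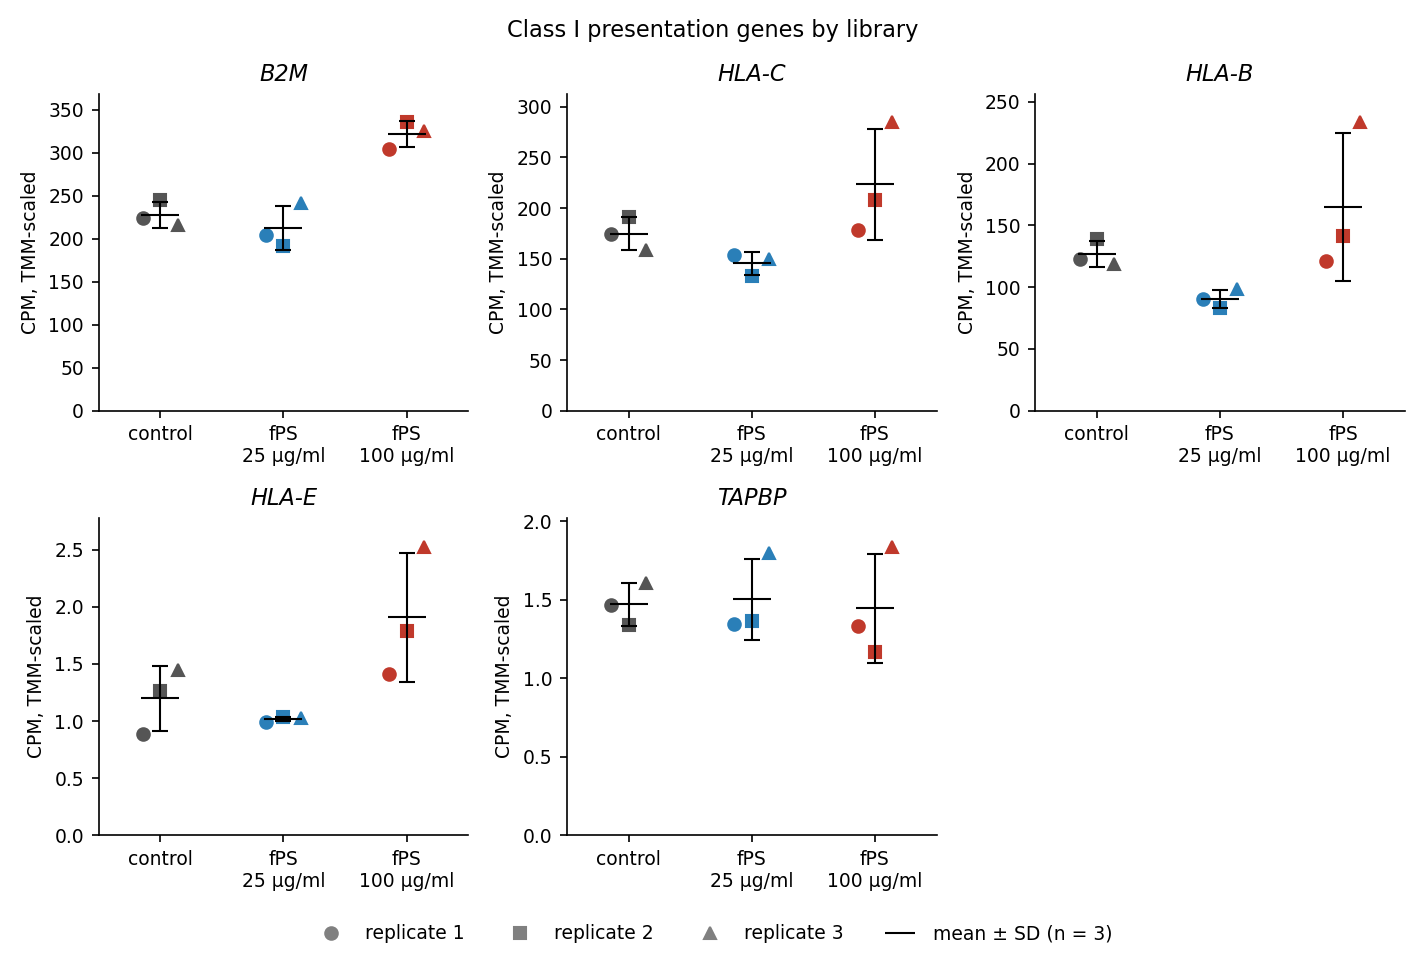
Levels of B2M, HLA-C, HLA-B, HLA-E and TAPBP in each library, in CPM with TMM-scaled library sizes on axes that start at 0. Circles, squares and triangles are replicates 1, 2 and 3, and bars are mean ± SD (n = 3). All 3 fPS 100 libraries of B2M stand above the others, and replicate 3 of fPS 100 is highest in the panels of the HLA genes.

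Tapasin, encoded by TAPBP (chromosome 6, 33299694 to 33314078), holds the empty class I molecule next to the peptide transporter. It had 313 counts in all, and 1.47, 1.34 and 1.61 CPM in control, 1.34, 1.36 and 1.80 CPM in fPS 25 and 1.33, 1.17 and 1.84 CPM in fPS 100. The 3 groups overlapped. The log2 fold change was -0.02 ± 0.24 for fPS 100 against control (adjusted p = 0.957), 0.04 ± 0.24 for fPS 25 against control (adjusted p = 0.955) and -0.06 ± 0.24 for fPS 100 against fPS 25 (adjusted p = 0.909). Of these counts 157 and 153 lay on 2 of its 5 rows, which gave fold changes of opposite sign for fPS 100 against control, 0.47 and -0.52, neither of which passed (adjusted p = 0.248 and 0.370). The SE of 0.24 was over 2 times that of B2M.

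TAP1 (chromosome 6, 32845209 to 32853704) and TAP2 (32821831 to 32838739) code for the peptide transporter, and PSMB8 (32840717 to 32844679) and PSMB9 (32854192 to 32859851) for the immunoproteasome subunits. None of the 4 passed the filter on low counts. Their single counts stood in control replicate 2 for PSMB9, and in control replicate 1 and fPS 25 replicates 2 and 3 for TAP2.

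Of the 5 members that passed the filter, 1 (B2M) was called higher in fPS 100 than in control and none lower, where 30% of 14637 genes were called, 15.2% higher and 14.8% lower. B2M alone had fPS 100 libraries that all lay above control, as 20.6% of genes did. In fPS 25 against control, 0 of 5 were called by edgeR, DESeq2 or limma-voom. Of all genes 5.25% were called there, 3% higher and 2.25% lower. At an edgeR p under 0.05 before adjustment stood 1 member, HLA-B, and 20.7% of genes. All fPS 25 libraries lay below control for 2 of 5 (HLA-B and HLA-C), against 17.1% of genes. In fPS 100 against fPS 25, 3 of 5 were called higher and none lower, where 13.7% of genes were called, 6.31% higher and 7.43% lower. For 4 of 5 all fPS 100 libraries lay above fPS 25, against 17.6% of genes. In the test for any difference among the 3 groups, B2M (adjusted p = 0.00238), HLA-B (0.0198) and HLA-C (0.0267) were called and HLA-E (0.0562) was not, where 27.7% of genes were. The median log2 fold change of the 5 members was 0.38, -0.24 and 0.62 for fPS 100 against control, fPS 25 against control and fPS 100 against fPS 25, and that of all genes tested 0.01, -0.01 and 0.02. The comparisons share libraries, so they are not separate evidence.

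**Figure D3:**
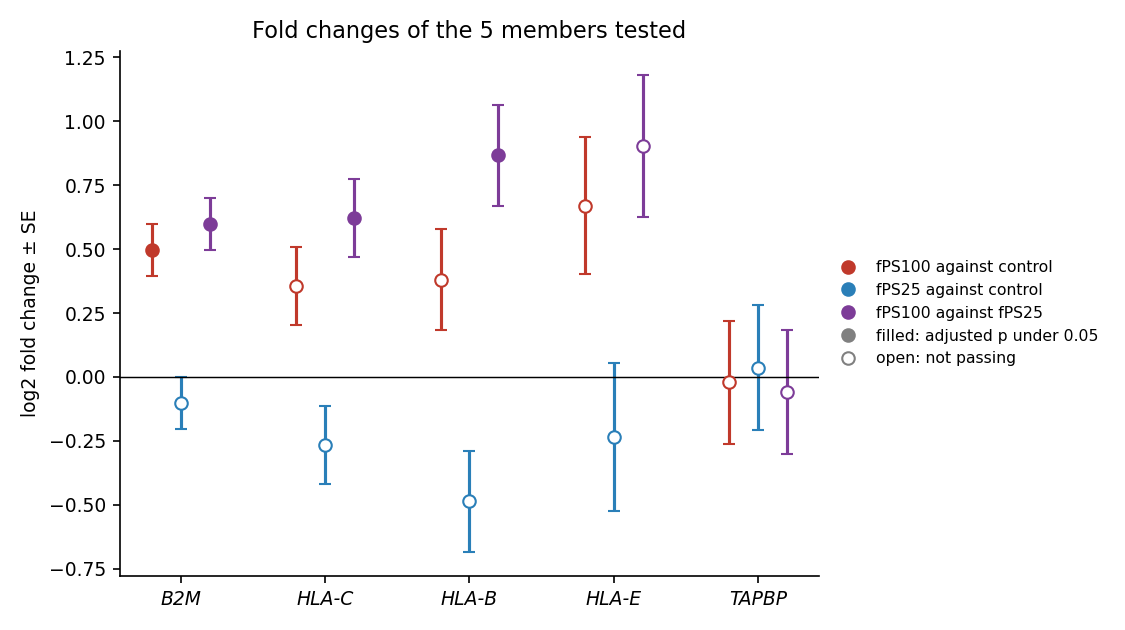
Log2 fold changes ± SE of the 5 members that passed the filter on low counts, for fPS 100 against control, fPS 25 against control and fPS 100 against fPS 25 (n = 3 per group, edgeR). Filled points had an adjusted p under 0.05: B2M in the first comparison, and B2M, HLA-C and HLA-B in the third.

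The authors' log2 files, which scale for gene length, allow levels to be set between genes, for assigned reads only. All tested members but B2M lie in the MHC stretch. There 58.8% of symbols on 5 or more rows had under 10 counts. The low values of HLA-E and TAPBP are therefore given as listed, and how much RNA the cells held cannot be read from them. On the linear scale of those values B2M stood highest, at 213 ± 10.9 in control, 207 ± 25.3 in fPS 25 and 308 ± 14.1 in fPS 100 (SD, n = 3). HLA-C followed with 98.2 ± 7.78, 84.4 ± 6.22 and 128 ± 29.0 in the same order of groups, and HLA-B with 70.0 ± 4.80, 51.6 ± 4.11 and 93.1 ± 31.9. HLA-C and HLA-B differed beyond their spread in control and fPS 25, and their ranges overlapped in fPS 100. Within each fPS 100 library HLA-C was the higher, at 104, 121 and 160 against 69.4, 80.4 and 129 for HLA-B. HLA-E, at 0.361 ± 0.086, 0.316 ± 0.007 and 0.595 ± 0.178, and TAPBP, at 0.351 ± 0.037, 0.370 ± 0.063 and 0.353 ± 0.079, came last. These 2 differed by less than their spread in control and fPS 25. The kind of scaling is not given, and the linear values summed to between 714018 and 1098123 in a library, so levels set across libraries on this scale are approximate.

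Several alternate rows carried the HLA counts, and they could be tested apart. Of the HLA-B counts 44.3% stood on the largest of 6 rows, and of the HLA-C counts 65.0% on the largest of 7. For fPS 100 against fPS 25, the 5 HLA-B rows with counts gave log2 fold changes of 0.68 to 0.96, and 4 of them passed (adjusted p = 0.0169, 0.0188, 0.0312 and 0.0233, against 0.0858 for the smallest row). The 3 large HLA-C rows gave 0.62, 0.69 and 0.59 (adjusted p = 0.0220, 0.0126 and 0.0324). The third HLA-C row alone also passed for fPS 100 against control, at 0.47 ± 0.16 (adjusted p = 0.0452). The rows of a gene come from the same libraries and are no replicates of each other.

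**Figure D4:**
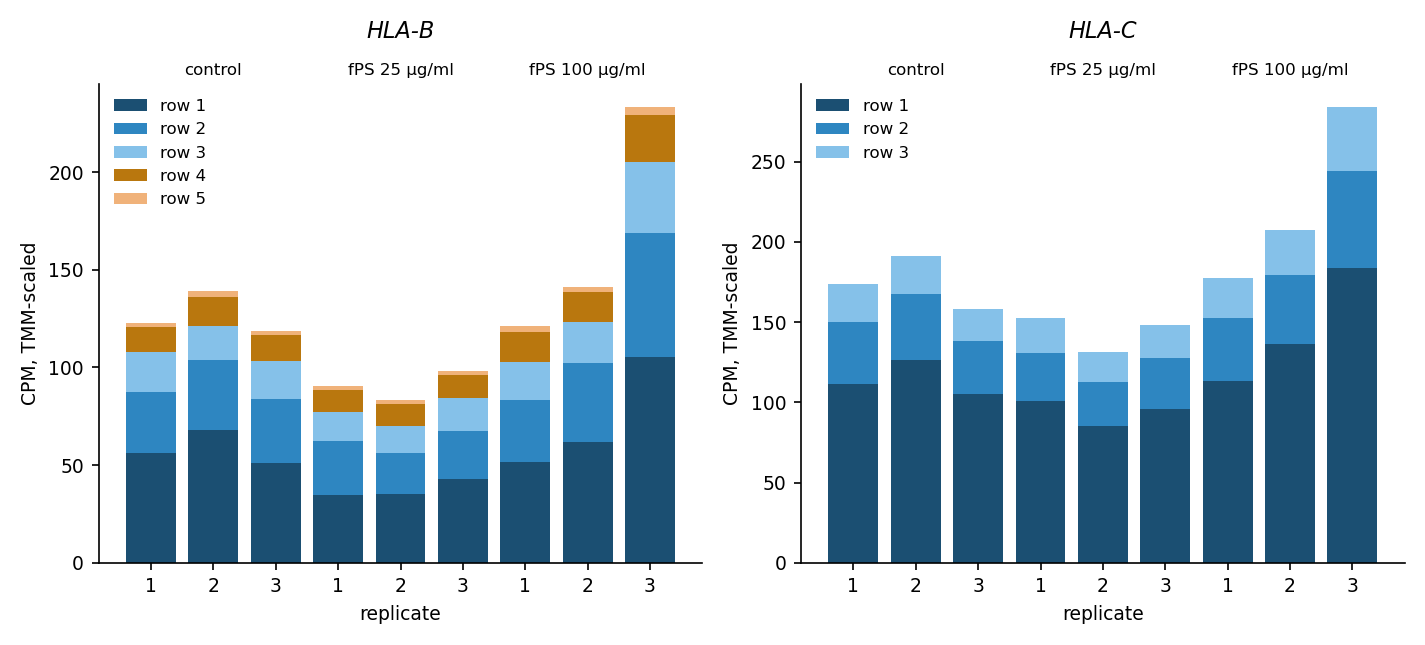
CPM of HLA-B and HLA-C in each library, stacked by alternate-locus row from the largest (row 1, at the bottom) to the smallest with 100 counts or more. All fPS 25 bars are shorter than all fPS 100 bars for both genes, and replicate 3 of fPS 100 has the tallest.

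The promoters of B2M, HLA-B and HLA-C are shown because these genes were called together at fPS 100 against fPS 25, with that of TAPBP as a member that was not. They are the RefSeq reference (GRCh38.p14), not the alleles of HaCaT, from 250 bases before to 50 after the start of the gene. Of the 9 members, 8 matched this table. Capitals mark 4 motifs searched on both strands: the IRF core AANNGAAA, the CREB/ATF core TGACG, the NF-Y core CCAAT, and the NF-kB motif. Overlapping matches run together in the capitals.
HLA-B, chr6:31357130-31357429, minus strand: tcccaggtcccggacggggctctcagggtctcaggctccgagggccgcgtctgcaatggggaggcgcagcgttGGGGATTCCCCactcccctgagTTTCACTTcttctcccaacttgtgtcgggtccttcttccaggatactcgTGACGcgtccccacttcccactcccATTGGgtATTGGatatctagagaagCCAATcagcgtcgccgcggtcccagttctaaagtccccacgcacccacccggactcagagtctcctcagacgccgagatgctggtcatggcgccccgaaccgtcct
HLA-C, chr6:31272043-31272342, minus strand: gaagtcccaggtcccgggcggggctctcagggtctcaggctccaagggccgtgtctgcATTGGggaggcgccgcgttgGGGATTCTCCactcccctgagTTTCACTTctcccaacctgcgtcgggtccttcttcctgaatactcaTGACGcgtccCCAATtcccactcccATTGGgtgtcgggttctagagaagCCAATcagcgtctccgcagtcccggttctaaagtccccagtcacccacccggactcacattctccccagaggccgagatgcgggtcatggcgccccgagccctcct
B2M, chr15:44711267-44711566, plus strand: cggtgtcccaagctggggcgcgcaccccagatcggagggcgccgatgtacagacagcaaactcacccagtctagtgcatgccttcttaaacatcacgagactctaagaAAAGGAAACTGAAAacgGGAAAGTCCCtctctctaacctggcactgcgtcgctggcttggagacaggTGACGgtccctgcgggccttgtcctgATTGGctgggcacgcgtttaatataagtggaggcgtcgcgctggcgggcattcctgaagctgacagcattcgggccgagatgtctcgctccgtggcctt
TAPBP, chr6:33314029-33314328, minus strand: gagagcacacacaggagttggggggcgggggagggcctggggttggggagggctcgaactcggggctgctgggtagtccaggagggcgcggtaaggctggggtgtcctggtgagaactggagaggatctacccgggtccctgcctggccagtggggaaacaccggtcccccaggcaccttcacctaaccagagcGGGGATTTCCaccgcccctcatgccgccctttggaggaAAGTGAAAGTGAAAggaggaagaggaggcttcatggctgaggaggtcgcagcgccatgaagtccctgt

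HLA-B held 1 IRF core, 1 TGACG, 3 CCAAT and 2 overlapping NF-kB matches, and HLA-C held 1, 1, 4 and 1 in the same order. B2M held 2 IRF cores, 1 TGACG, 1 CCAAT and 1 NF-kB match. TAPBP held 2 IRF cores and 1 NF-kB match and no TGACG or CCAAT in this window. Of 35114 promoters of the same length, 22.8% held the IRF core, 24.6% TGACG, 34.6% CCAAT and 5.9% the NF-kB motif. A match describes the letters and not a bound site.

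Among the other class I and class I-like molecules, MR1 rose and ULBP1 fell at fPS 100. Of 12 listed genes 11 were tested. In fPS 100 against control 1 rose and 2 fell, and in fPS 25 against control none was called by edgeR, DESeq2 or limma-voom (3 without replicate 3 of fPS 100, and 4 at an unadjusted p under 0.05). Of all genes 15.2% rose and 14.8% fell in the first comparison, and 5.25% were called in the second. In the second, 20.7% of genes stood at an unadjusted edgeR p under 0.05. Without replicate 3 of fPS 100, 1946 genes were called there, against 768 with all libraries. MR1, which shows vitamin B metabolites to MAIT cells, averaged 32.3 ± 4.22 CPM in fPS 100 and 21.9 ± 2.22 CPM in control (log2 fold change 0.56 ± 0.12, adjusted p = 0.00492). ULBP1, a stress-induced ligand of the receptor NKG2D, averaged 5.66 ± 0.952 CPM in control, 6.97 ± 0.262 CPM in fPS 25 and 2.22 ± 1.16 CPM in fPS 100. It fell by 1.36 ± 0.32 on the log2 scale against control (adjusted p = 0.00837) and was lower than in fPS 25 by a log2 fold change of -1.65 ± 0.32 (adjusted p = 0.00587). HFE, a class I-like regulator of iron uptake, passed narrowly in fPS 100 against control (-0.45 ± 0.16, adjusted p = 0.0491), and 11 of 21 other settings lost the call.

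Of 8 genes for peptide loading, folding and trimming in the ER, 1 fell in fPS 100 against control (14.8% of all genes did), 1 fell in fPS 25 against control (2.25%) and 1 was higher in fPS 100 than in fPS 25 (6.31%). The gene higher in fPS 100 than in fPS 25 is TAPBPL (TAPBPR), a tapasin relative that edits the peptides of class I molecules, which was also the gene that fell in fPS 25. TAPBPL had 20.6, 21.1 and 19.4 CPM in control, 13.0, 14.5 and 14.2 CPM in fPS 25 and 19.2, 21.3 and 26.2 CPM in fPS 100. All fPS 25 libraries lay below all others, and the log2 fold change was -0.55 ± 0.12 for fPS 25 against control (adjusted p = 0.0319) and 0.67 ± 0.12 for fPS 100 against fPS 25 (adjusted p = 0.00473). The call of fPS 25 against control was lost in 6 of 21 other settings, 5 of which leave out 1 library. Calnexin (CANX), an ER chaperone of new heavy chains, passed narrowly in fPS 100 against control (-0.26 ± 0.09, adjusted p = 0.0454), and 14 of 21 other settings lost the call. Without replicate 3 of fPS 100, 4 of the 8 were called in that comparison, where the genes called in all rose from 4393 to 5658. DESeq2 and limma-voom each called 3 of the 8 there, beside 4613 and 4353 genes in all. DESeq2 called 2 in fPS 25 against control, beside 1232 genes in all.

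PSMB10, the third catalytic subunit of the immunoproteasome, lies outside the MHC and passed the filter on low counts. It had 43.7, 59.9 and 39.3 CPM in control, 30.6, 24.4 and 32.4 CPM in fPS 25 and 40.7, 48.5 and 78.7 CPM in fPS 100. The fPS 25 libraries were the lowest and replicate 3 of fPS 100 the highest. PSMB10 gave a log2 fold change of 0.94 ± 0.23 for fPS 100 against fPS 25 (adjusted p = 0.0213), 0.23 ± 0.23 for fPS 100 against control (adjusted p = 0.479) and -0.71 ± 0.23 for fPS 25 against control (adjusted p = 0.110). The call was lost without fPS 25 replicate 1 (adjusted p = 0.0659) or replicate 2 (adjusted p = 0.101). PSMB10 was the only 1 of 4 immunoproteasome and proteasome activator genes called in any of the 3 comparisons, the others being PSME1, PSME2 and POMP. Of all genes 30% were called in fPS 100 against control, 5.25% in fPS 25 against control and 13.7% in fPS 100 against fPS 25. In fPS 25 against control 0 of these 4 were called by edgeR or limma-voom and 1 by DESeq2 (1232 genes in all). In fPS 100 against control 0 were called by all 3 tools. The constitutive catalytic subunits PSMB5, PSMB6 and PSMB7, which the immunoproteasome replaces, had 0 of 3 called in each comparison by edgeR, DESeq2 and limma-voom, with 1 at an unadjusted p under 0.05, in fPS 25 against control. Without replicate 3 of fPS 100, edgeR called 1 of these 3 in fPS 100 against control, beside 5658 genes in all. Of 7 cytosolic peptidases, 0 were called in fPS 100 against control by edgeR or limma-voom. DESeq2 called 1 (4613 genes in all), and 4 stood at an unadjusted edgeR p under 0.05. BLMH rose in fPS 25 against control (0.33 ± 0.08, adjusted p = 0.0472), and NPEPPS was higher in fPS 100 than in fPS 25 (0.29 ± 0.08, adjusted p = 0.0397). Each of these calls was lost in 10 of 21 other settings.

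Of the 16 transcriptional regulators of class I genes, 5 rose and 3 fell in fPS 100 against control, where 15.2% of all genes rose and 14.8% fell. In fPS 25 against control 1 rose and 3 fell, beside 3% and 2.25% of all genes. Between fPS 100 and fPS 25, 5 were higher and 2 lower in fPS 100, beside 6.31% and 7.43% of all genes. The median log2 fold changes of the list were 0.09, -0.03 and 0.16. Without replicate 3 of fPS 100, 8 of the 16 were called in fPS 25 against control, but the genes called in all also rose there, from 768 to 1946. IRF1, which binds the IRF core, had 77.6, 95.1 and 77.4 CPM in control, 52.7, 48.6 and 52.4 CPM in fPS 25 and 64.7, 76.2 and 82.6 CPM in fPS 100. The fPS 25 libraries lay below all 6 others, and fPS 100 overlapped control. For IRF1 it was a log2 fold change of -0.70 ± 0.12 for fPS 25 against control (adjusted p = 0.00749), 0.54 ± 0.11 for fPS 100 against fPS 25 (adjusted p = 0.00943) and -0.16 ± 0.11 for fPS 100 against control (adjusted p = 0.306). Without fPS 25 replicate 2 the first 2 had an adjusted p of 0.0562 and 0.0543.

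RFX5 and NLRC5 followed another order, with the highest level at fPS 100 and no call at fPS 25 against control. RFX5, a subunit of the RFX complex on the class I and class II promoters, had 80.8, 75.8 and 86.1 CPM in control, 96.9, 83.5 and 79.4 CPM in fPS 25 and 122, 125 and 136 CPM in fPS 100. The fPS 100 libraries lay above all others, by a log2 fold change of 0.66 ± 0.10 against control (adjusted p = 0.000552) and 0.56 ± 0.10 against fPS 25 (adjusted p = 0.00312), and no other setting lost either call. NLRC5, the transactivator that works through that complex, had 31.1, 29.8 and 31.9 CPM in fPS 100, and 25.2, 23.9 and 26.1 CPM in control. Its log2 fold change of 0.30 ± 0.10 passed (adjusted p = 0.0342), and 9 of 21 other settings lost the call. STAT2 (-0.41 ± 0.08, adjusted p = 0.0166) and its partner IRF9 (-0.39 ± 0.10, adjusted p = 0.0392) fell in fPS 25 against control, while NFYB, a subunit of the CCAAT-binding factor NF-Y, rose (0.61 ± 0.14, adjusted p = 0.0370). Of 21 other settings, 6 lost the call of STAT2, 11 that of IRF9 and 8 that of NFYB, the replicate block among them (318 genes called in all). DESeq2 called 8 of the 16 regulators in that comparison, and 1232 genes in all, against 768 by edgeR. In fPS 100 against control, ATF1 (-0.55 ± 0.08, adjusted p = 0.000404) and NFYC (-0.33 ± 0.09, adjusted p = 0.0173) fell. The call of NFYC was lost in 3 of 21 other settings and that of ATF1 in 0.

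**Figure D5:**
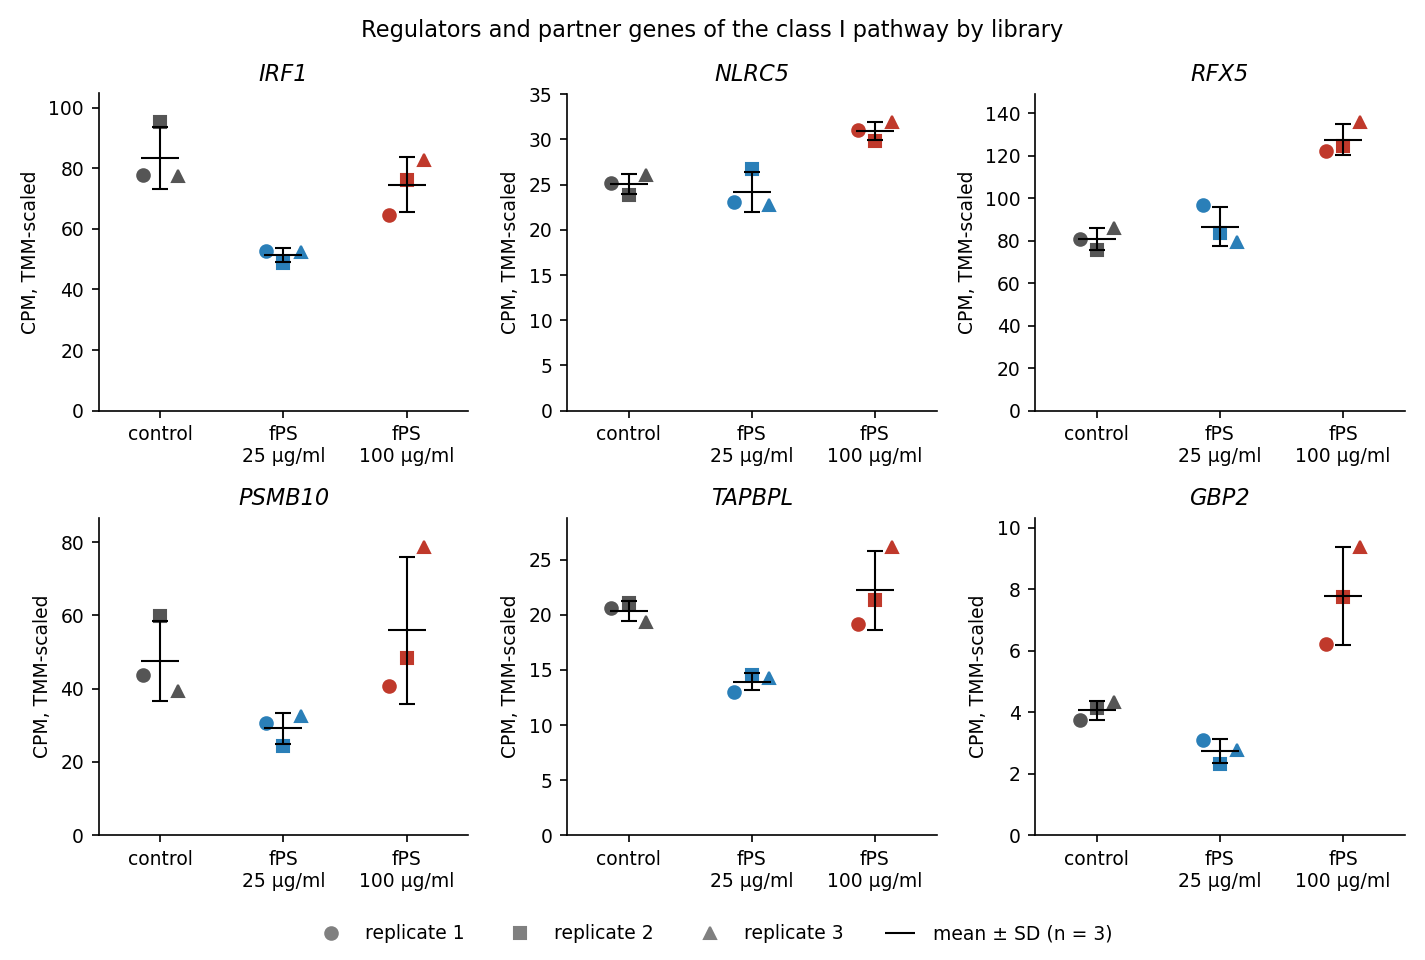
Levels of 6 regulators and partner genes in each library, in CPM on axes that start at 0, with marks as in the plot of the members and bars for mean ± SD (n = 3). IRF1, PSMB10, TAPBPL and GBP2 are lowest in all 3 fPS 25 libraries, and RFX5 is highest in all 3 fPS 100 libraries.

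The receptors and targets of interferon that passed were higher in fPS 100. Of all genes 15.2% were called higher and 14.8% lower in fPS 100 against control. In fPS 25 against control 5.25% were called, and 6.31% were higher in fPS 100 than in fPS 25. Of 10 interferon receptors, kinases and inhibitors, 2 rose and none fell in fPS 100 against control, and none was called in fPS 25 against control by edgeR, DESeq2 or limma-voom, nor at an unadjusted p under 0.05. IFNAR2 (0.80 ± 0.16, adjusted p = 0.00384) and IFNAR1 (0.34 ± 0.09, adjusted p = 0.0109) are the chains of the type I interferon receptor. IFNGR2, a chain of the interferon gamma receptor, was higher in fPS 100 than in fPS 25 (1.15 ± 0.32, adjusted p = 0.0328), with a call lost in 9 of 21 other settings, among them without replicate 3 of fPS 100 (adjusted p = 0.0516). Of 10 interferon gamma response genes outside the pathway, 4 rose in fPS 100 against control and none fell, 5 were higher in fPS 100 than in fPS 25, and none was called in fPS 25 against control by edgeR, DESeq2 or limma-voom (3 without replicate 3 of fPS 100, and 3 at an unadjusted p under 0.05). In fPS 25 against control, 1946 genes were called in all without that replicate, and 20.7% stood at an unadjusted edgeR p under 0.05. The median log2 fold changes of this list were 0.76 in fPS 100 and -0.30 in fPS 25, both against control, and 1.06 between fPS 100 and fPS 25. GBP2, a guanylate-binding protein, had 3.73, 4.13 and 4.33 CPM in control, 3.10, 2.31 and 2.79 CPM in fPS 25 and 6.22, 7.74 and 9.38 CPM in fPS 100. The fPS 100 libraries lay above all others, by a log2 fold change of 0.94 ± 0.18 against control (adjusted p = 0.0027) and 1.52 ± 0.19 against fPS 25 (adjusted p = 0.000359). GBP3 also rose against control (0.86 ± 0.15, adjusted p = 0.00185). CXCL10, a chemokine that draws T cells, had 3.88, 5.37 and 14.2 CPM in fPS 100, against 2.53, 3.31 and 4.04 CPM in control. Its rise (1.24 ± 0.40, adjusted p = 0.0365) was 0.49 without replicate 3 (adjusted p = 0.102), and that of GBP1 (0.70 ± 0.24, adjusted p = 0.0495) was 0.24 without it and no longer passed. In all, the call of CXCL10 was lost in 10 of 21 other settings and that of GBP1 in 15. limma-voom called 2 genes of this list in fPS 100 against control and 3 in fPS 100 against fPS 25, beside 4353 and 1913 genes in all.

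Of the repressors and down-regulators of class I, 9 of 10 were tested, and 1 rose and 3 fell in fPS 100 against control. Of all genes 15.2% rose and 14.8% fell there, and 5.25% were called in fPS 25 against control. Between fPS 100 and fPS 25, 6.31% were higher and 7.43% lower in fPS 100. EZH2, the methyltransferase of Polycomb complex PRC2, averaged 34.6 ± 2.34 CPM in control, 38.5 ± 3.50 CPM in fPS 25 and 22.9 ± 2.72 CPM in fPS 100. It fell by 0.60 ± 0.11 on the log2 scale against control (adjusted p = 0.00245), with a log2 fold change of -0.76 ± 0.11 against fPS 25 (adjusted p = 0.00128). EED, also of PRC2, fell in fPS 100 against control (-0.35 ± 0.11, adjusted p = 0.0337), and SUZ12, the remaining core subunit, was lower in fPS 100 than in fPS 25 (-0.36 ± 0.10, adjusted p = 0.0289). Of 21 other settings, 7 lost the call of EED and 6 that of SUZ12, the replicate block among them, and 0 lost either call of EZH2. WWP2, a ubiquitin ligase of the SUSD6 and TMEM127 complex that removes class I from the surface, fell against control (-0.44 ± 0.09, adjusted p = 0.00355). MARCHF9 (MARCH9 in the table), a ubiquitin ligase that can do so too, rose (0.44 ± 0.11, adjusted p = 0.0105), a call lost in 1 of 21 other settings. None of the 9 was called in fPS 25 against control by edgeR, DESeq2 or limma-voom, with 1 at an unadjusted p under 0.05, and 1 was higher and 2 lower in fPS 100 than in fPS 25.

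The members moved together to different degrees over the 9 libraries. As a description that shares the 3 groups and replicate 3 of fPS 100, Pearson's r of log2 CPM was 0.977 between HLA-B and HLA-C, 0.811 between HLA-C and B2M, 0.758 between HLA-B and B2M and 0.863 between HLA-B and HLA-E. TAPBP gave -0.016 to 0.307 with the other 4. The genes outside the pathway closest to the mean standardized pattern of the 5 members, over the 9 libraries and among genes at 5 CPM or more, were CD59 (r = 0.990), ZFPM1 (0.971), TMEM265 (0.969), R3HDM4 (0.968), PARP12 (0.967), IFNGR1 (0.966), CD47 (0.964) and MFSD10 (0.964). CD59 had 255, 278 and 265 CPM in control, 235, 224 and 250 CPM in fPS 25 and 278, 314 and 437 CPM in fPS 100. CD59 shields cells from complement and CD47 signals to macrophages not to engulf the cell, and for both replicate 3 of fPS 100 was the highest library.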

How the data were processed

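RNA from 9 HaCaT libraries was enriched for poly(A), per the labels' protocols, and bcl2fastq and GRCh38.p14 are named in the submitters' processing notes. For the aligner, counting program and strand setting, nothing is given in the sources used here. The deposited series table holds counts, a whole number per row and library with no normalization, in 58173 rows. The 9 per-sample files from the authors give log2 of 1 plus a value scaled for length and depth, used for levels between genes and for 1 alternative. Rows of a symbol were summed. Genes were kept with filterByExpr (minimum count 10, minimum total 15) in edgeR 4.0.16 (R 4.3.3), which left 14637, scaled by TMM, and all 9 libraries entered 1 robust quasi-likelihood fit with group as the only term (6 residual degrees of freedom, common dispersion 0.0186). Tests were 2-sided with Benjamini-Hochberg adjustment over all genes, with calls at an adjusted p under 0.05. The SE was computed as |log2 fold change| divided by the root of F. The procedure was tested on simulated data. Total counts were 16428213 to 29274480 per library. A count of 0 allows 3 counts, which covers counting error only.

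No pair of replicates agreed within sampling noise (chi-square per degree of freedom 4.31 or more). The members and gene lists were chosen with earlier results of these data known. All members were named, and of each list the called genes, at most the 6 with the smallest adjusted p for any difference; NLRC5, IRF9 and NFYB were chosen after their values were seen. Promoters came from RefSeq. Alternatives were RLE and upper-quartile scaling, other filters on low counts, a non-robust fit, limma-voom (limma 3.58.1), DESeq2 1.42.0, a replicate block, the largest row of each symbol, no ribosomal RNA genes, the authors' log2 values with limma-trend, only the compared groups, and each library left out in turn. Some genes of the lists are not reported here.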

Additional observations from a re-analysis of the deposited data

Results flagged for a closer look

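The effects of the 2 concentrations against control differed for 3 members, tested as the difference between fPS 100 and fPS 25, where 13.7% of all genes were called. It was 0.867 on the log2 scale for HLA-B (edgeR adjusted p = 0.0142), 0.621 for HLA-C (adjusted p = 0.0204) and 0.599 for B2M (adjusted p = 0.00284), each higher in 3 of 3 fPS 100 libraries than in all fPS 25 libraries. With a library left out, it ran from 0.533 to 1.048 for HLA-B, from 0.408 to 0.761 for HLA-C and from 0.531 to 0.700 for B2M. The call of HLA-B was lost without fPS 25 replicate 1 or 2 (adjusted p = 0.0577 and 0.0701), and that of HLA-C without any 1 of the fPS 25 replicates (0.0567, 0.0976 and 0.0590).

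The fourth row of HLA-C, too small to be tested on its own, held 16, 19 and 18 counts in the fPS 25 libraries, 53 together, against 2, 0 and 2 in control and 1, 1 and 0 in fPS 100. Of the 58173 rows it was the only 1 with at least 10 counts in each fPS 25 library and at most 2 in every other library. No row met that rule for control, and 6 did for fPS 100, 4 of them ribosomal RNA genes. The row holds 0.15% of the HLA-C counts, and the cause was not tested.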

How the results depend on the processing

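Over 21 alternatives, the fold changes of the 5 tested members kept their direction and their side of the threshold in 289 values, gained a call in 11, lost one in 5 and turned in 10, all 10 for TAPBP, which was called in none. B2M was called in fPS 100 against control in every alternative, and its log2 fold change ran from 0.458 to 0.553 with a library left out. Of the called values of the other named genes, 860 kept the call and 210 lost it, with none turned. Members called in fPS 100 against control were 1, but 3 with no filter on low counts (B2M, HLA-B at 0.393, adjusted p = 0.00957, and HLA-C at 0.366, adjusted p = 0.0159) and 1 to 4 with a library left out, the 4 without fPS 100 replicate 1, where HLA-B (0.565), HLA-C (0.499) and HLA-E (0.849) also passed. Members called in fPS 25 against control were 0, but 1 with no filter and 1 with only the compared groups, and 0 to 1 with a library left out. That 1 was HLA-B (adjusted p = 0.00523, 0.0125 and, without fPS 100 replicate 3, 0.00786). Members called in fPS 100 against fPS 25 ran from 1 to 4 with a library left out, and for any difference from 1 to 4, with 1 in both without fPS 25 replicate 1 or 2. Genes called in fPS 25 against control were 768, but 1237 with no filter, 1232 with DESeq2 and 1511 with only the compared groups, and 135 (without fPS 25 replicate 2) to 1946 (without fPS 100 replicate 3) with a library left out. Genes called in fPS 100 against fPS 25 were 2012, and 1018 (without fPS 25 replicate 2) to 2706 with a library left out. Deviations of same-numbered libraries were correlated above 0.1 in 1 of 9 pairs, with r from -0.665 to 0.113. With 3 libraries a group, these values cannot tell whether same-numbered libraries were handled together. The replicate block called 318 genes in fPS 25 against control and changed no call of a member in the 3 comparisons, but left 2 of the 3 members called for any difference. TAPBP turned to 0.472 and 0.237 for fPS 100 against control and against fPS 25 with its largest row, and to 0.000 against control with the authors' log2 values. With a library left out it ran from -0.231 to 0.113, from -0.116 to 0.109 (fPS 25 against control) and from -0.272 to 0.096. No setting of the scaling moved the median of all genes by over 0.1. The causes were not tested. HLA-E and TAPBP rest on 297 and 313 counts over 9 libraries, and 4 members had too few counts for a test. Why these counts are low was not tested.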

Other observations

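MHC class II genes, which present peptides from outside the cell, were read at 1 gene. Of 11 listed genes of class II presentation 4 were tested, and HLA-DRA, HLA-DPA1, HLA-DPB1, HLA-DMA and HLA-DMB were listed at 0 in every library. HLA-DQB1, the beta chain of HLA-DQ, had 45.3, 52.6 and 47.7 CPM in control, 40.6, 37.4 and 43.4 CPM in fPS 25 and 68.5, 80.4 and 92.9 CPM in fPS 100. The fPS 100 libraries lay above all others, with a log2 fold change of 0.73 ± 0.12 against control (edgeR adjusted p = 0.000905) and 0.99 ± 0.12 against fPS 25 (adjusted p = 0.000292), and no alternative lost either call. CTSS, the protease cathepsin S, was higher in fPS 100 than in fPS 25 (1.71 ± 0.32, adjusted p = 0.00486). HLA-DRB1 passed in fPS 100 against control at under 1 CPM (-1.58 ± 0.54, adjusted p = 0.0475). That call was lost in 10 of 20 other settings, DESeq2 among them (adjusted p = 0.0803), and the value ran from -2.41 to -1.23 with a library left out and stood at -0.326 with the authors' log2 values. The alpha chain HLA-DQA1, which HLA-DQB1 needs as a partner, did not pass the filter on low counts. These HLA genes lie in the MHC stretch, where ABCF1, RING1 and EHMT2 were also listed at 0. Neither presence nor absence of the class II genes at or near 0 can be read from the counts.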
